A study of Mus musculus with 4 samples.

Results

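Toll-like receptors are innate immune receptors that recognise molecules of microbes and of damaged cells. Their genes were followed here in MC38 tumours from mice given vanoxerine, against tumours from mice given saline. The family was taken as the 10 genes Tlr1, Tlr2, Tlr3, Tlr4, Tlr5, Tlr6, Tlr7, Tlr8, Tlr9 and Tlr13, chosen by name among 54115 annotated genes, and all 10 passed the low-count filter that left 18758 genes for testing. MC38 is a mouse colon adenocarcinoma line, and the tumours arose from injected cells. Vanoxerine, an inhibitor of the dopamine transporter, was given intraperitoneally at 25 mg/kg in 10 daily injections, and the other group had 10 daily injections of saline. Each group had 2 libraries of RNA from whole, snap-frozen tumours. The labels do not tie a library to an animal, so p-values reflect only how much these libraries varied, and that variation may be technical.

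Each receptor pairs a leucine-rich ligand-binding ectodomain with a cytoplasmic TIR domain that recruits the adaptors MyD88 or TRIF. The surface receptors Tlr1, Tlr2, Tlr4, Tlr5 and Tlr6 mainly bind components of microbial envelopes and flagella, while Tlr3, Tlr7, Tlr8, Tlr9 and Tlr13 sit in endosomes and bind nucleic acids. In tumours, macrophages and dendritic cells are well-known carriers of many of these receptors.

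Expression of the family was higher in vanoxerine tumours. Of the 10 genes, 9 rose at a Benjamini-Hochberg adjusted p under 0.05 in edgeR's quasi-likelihood test, and Tlr3 was the one that did not pass. All 10 log2 fold changes were above 0, and for 9 genes both vanoxerine libraries lay above both saline libraries. Over all genes tested, 36.9% were called in either direction, 21.0% higher and 15.9% lower in vanoxerine. Both vanoxerine libraries lay above both saline libraries for 35.8% of genes tested, and the groups were apart in either direction for 70.7%. The median log2 fold change was 1.42 over the 10 receptors and -0.01 over all genes tested. The called rises ran from 2.15-fold for Tlr2 to 7.39-fold for Tlr8. Summed over the family, the level was 543 and 542 CPM (read counts scaled by library size and TMM factor) in the vanoxerine libraries, against 235 and 209 CPM in the saline libraries.

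**Figure D1:**
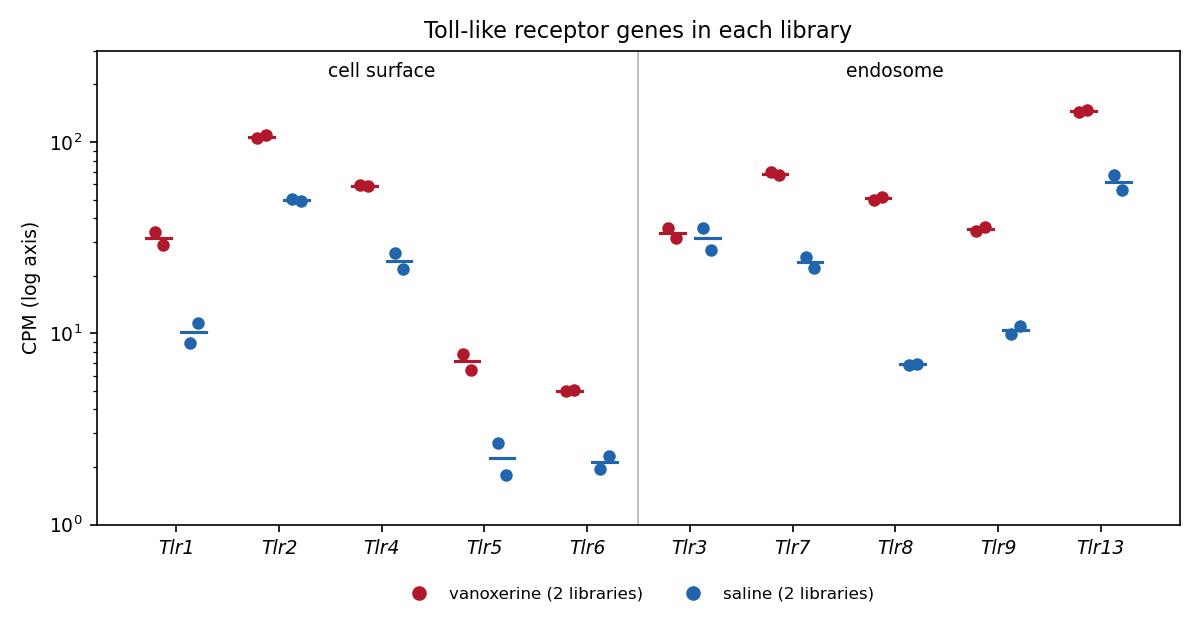
Each point is 1 library, with CPM on a log axis, vanoxerine in red on the left of each gene and saline in blue on the right; the short lines are group means over 2 libraries. Both vanoxerine points lie above both saline points for every gene except Tlr3, where saline 1 (35.6 CPM) is the highest of the 4 libraries.

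The background of calls in this comparison was large and depended on single libraries and on the scaling. Without vanoxerine replicate 1 or 2 the count of genes called was 3235 or 3107, in place of 6916. Of the calls, 56.9% were higher in vanoxerine, and that share was 39.0% with upper-quartile factors, 82.5% on the log2(TPM + 1) scale, and 67.6% or 68.0% without vanoxerine replicate 1 or 2. Upper-quartile factors moved the median log2 fold change of all genes by -0.13, and log2(TPM + 1) moved it by 0.14. The 9 called receptors kept a positive fold change under all 19 alternative settings, 4 of which leave a group with 1 library whose spread is taken from the other group. Tlr1, Tlr2, Tlr4, Tlr5, Tlr8, Tlr9 and Tlr13 were called in all 19 alternatives, Tlr6 in 18, Tlr7 in 16 and Tlr3 in 1.

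Tumours are mixtures, and in bulk RNA fewer cells of a type and less RNA per cell cannot be told apart. Of 12 macrophage markers, 12 were called higher, and their summed level was 5630.4 and 5635 CPM in vanoxerine against 1296 and 1345 CPM in saline, with none at 0. Conventional dendritic cell markers were called higher for 6 of 8 genes, with sums of 110.2 and 112 CPM in vanoxerine against 45.9 and 53.5 CPM in saline. Itgax alone held 63.1 and 63.2 CPM of these sums in vanoxerine and 27.5 and 30.4 CPM in saline. Zbtb46 (log2 fold change 0.06, adjusted p = 0.765, edgeR) and Cd209a (2.07, adjusted p = 0.296, edgeR) were not called. All 6 mast cell markers were called higher, with sums of 108 and 106 CPM against 24.9 and 25.0 CPM in saline. Neutrophil markers, from a cell that also carries surface receptors of this family, were called lower for 5 of 8 genes, and the other 3 had adjusted p of 0.139 to 0.457 (edgeR). Their sums were 584 and 577 CPM in vanoxerine against 1015 and 1065 CPM in saline. B cell and plasmacytoid dendritic cell markers, from cells known for Tlr7 and Tlr9, were mixed: 2 of 8 B cell genes were called higher and 1 lower, and 3 of 8 plasmacytoid genes were called higher and 2 lower. All 8 fibroblast markers were called lower. Of 8 endothelial markers 6 were called lower, while Pecam1, which some leukocytes also express, was called higher at 98.0 and 98.3 CPM in vanoxerine against 52.8 and 54.3 CPM in saline, and the list summed to 141 and 144 CPM in vanoxerine against 149.6 and 147 CPM in saline. Of 6 monocyte markers 2 were called higher and 2 lower, with sums of 1099 and 1098 CPM in vanoxerine against 1144 and 1123 CPM in saline. Of 6 NK cell markers 4 were called higher, and of 8 T cell markers 2 were called higher and 2 lower. Of 10 colon epithelial markers only 7 passed the filter, and Cdx2, a transcription factor of intestinal epithelium, had no reads in any library. Of the 7, 3 were called higher. For comparison with all these lists, 21.0% of all genes tested were called higher and 15.9% lower. The part of these cell types in the receptor results was not tested.

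The surface receptors were called higher in vanoxerine for 5 of 5 genes, with a median log2 fold change of 1.30. Tlr2 (chr3:83836272-83841767, reverse strand, GRCm38) binds bacterial lipoproteins in pairs with Tlr1 or Tlr6. Its level was 105 and 109 CPM in vanoxerine against 50.3 and 48.9 CPM in saline. The groups were well apart and each pair of libraries nearly coincided, with a log2 fold change of 1.11 ± 0.050 (SE; adjusted p = 5.35e-05, edgeR). Tlr2 has a single annotated transcript, and none of its 31-base words occurs in a transcript of another gene, so its reads needed no division among isoforms.

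Tlr4 (chr4:66827584-66930284, forward strand) binds lipopolysaccharide together with MD-2 and CD14. It stood at 59.3 and 59.0 CPM in vanoxerine against 26.3 and 21.7 CPM in saline, again without overlap. The log2 fold change was 1.30 ± 0.099 (adjusted p = 0.000291, edgeR). Tlr5 (chr1:182954788-182976044, forward strand), the flagellin receptor, had few reads. It stood at 7.79 and 6.47 CPM in vanoxerine against 2.67 and 1.81 CPM in saline, where the lowest library held 129 reads of the gene. The vanoxerine libraries were both higher, with a log2 fold change of 1.67 ± 0.24 (adjusted p = 0.00352, edgeR), the widest standard error in the family. On the log2(TPM + 1) scale, which understates changes of low genes, the Tlr5 value was 1.06 and was still called.

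Tlr1 and Tlr6, the partners of Tlr2 for triacylated and diacylated lipopeptides, are neighbouring genes on chromosome 5 (chr5:64924679-64933563 and chr5:64952031-64960097, both reverse strand). Tlr1 had 33.7 and 29.1 CPM in vanoxerine against 8.94 and 11.3 CPM in saline. Both vanoxerine libraries were above both saline libraries, and the log2 fold change was 1.63 ± 0.14 (adjusted p = 0.000484, edgeR). Tlr6 had 4.97 and 5.02 CPM in vanoxerine against 1.95 and 2.29 CPM in saline. Its log2 fold change was 1.24 ± 0.20 (adjusted p = 0.00504, edgeR), and without vanoxerine replicate 2 the call was lost at an adjusted p of 0.0504. On the log2(TPM + 1) scale the Tlr6 value was 0.67 and was called.

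The Tlr6 value may rest on part of that gene's reads. In the authors' deposited table Tlr6 had a base mean of 1156 normalized reads, 4.63 times the 249.7 counted here, while the other 9 receptors had ratios of 0.990 to 1.14. Across 13246 genes with a mean of at least 100 reads the median ratio was 1.01, and 0.332% of genes had a ratio above 2. The authors' deposited table gives Tlr6 a log2 fold change of 0.39 with an adjusted p of 0.0559. Reads of 1201 transcripts with no gene in the annotation used here were not assigned, and whether they account for the gap was not tested. Tlr6 was also the only receptor whose quantified transcripts had other version numbers than in that annotation. These were 6 against 5 for Tlr6-201 and 2 against 1 for Tlr6-202, with the same lengths. Whether this bears on the gap was not tested. Without Tlr6, 8 of the other 9 receptors were called higher.

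Tlr1 and Tlr6 are also hard to separate by sequence. Of the 31-base words in Tlr1 transcripts 20.0% occur in another gene, and for Tlr6 the share is 16.6%, so Salmon divided some reads between them by estimate. The longest run shared by both coding sequences (Tlr1-201 and Tlr6-201, GENCODE M21) is 229 bases, at coding positions 1468 to 1696 of Tlr1 and 1507 to 1735 of Tlr6. It is shown because a read that falls inside it cannot be assigned to either gene by its sequence.
Shared run of Tlr1 and Tlr6: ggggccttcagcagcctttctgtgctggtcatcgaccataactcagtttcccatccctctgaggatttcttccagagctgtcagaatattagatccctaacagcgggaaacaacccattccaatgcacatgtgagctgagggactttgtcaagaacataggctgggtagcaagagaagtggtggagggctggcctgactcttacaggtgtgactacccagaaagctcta

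The endosomal receptors were called higher for 4 of 5 genes, with a median log2 fold change of 1.54. Tlr8 (chrX:167242696-167264329, reverse strand) showed the largest rise in the family. Human TLR8 senses breakdown products of single-stranded RNA, and the mouse receptor responds poorly to agonists of the human one. Its level was 50.04 and 51.5 CPM in vanoxerine against 6.83 and 6.91 CPM in saline. Each pair of libraries nearly coincided and the groups were far apart, with a log2 fold change of 2.88 ± 0.073 (adjusted p = 9.48e-06, edgeR). Across all genes tested, 163 called genes, Tlr8 included, had a log2 fold change at least as high.

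Tlr9 (chr9:106222598-106226883, forward strand), the receptor for unmethylated CpG DNA, came next in fold change. It had 34.4 and 36.1 CPM in vanoxerine against 9.93 and 10.9 CPM in saline. The groups did not overlap, and the log2 fold change was 1.76 ± 0.087 (adjusted p = 6.74e-05, edgeR). Its single transcript shares no 31-base word with another gene. Tlr13 (chrX:106143204-106160493, forward strand), a mouse receptor for bacterial ribosomal RNA that humans lack, was the member with the most reads. It stood at 143 and 147 CPM in vanoxerine against 67.6 and 56.2 CPM in saline. Both vanoxerine libraries were higher, with a log2 fold change of 1.23 ± 0.091 (adjusted p = 0.000262, edgeR).

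Tlr7 (chrX:167304929-167330558, reverse strand), the neighbour of Tlr8 on the X chromosome, binds guanosine and single-stranded RNA. By reads it had 69.3 and 67.6 CPM in vanoxerine against 25.1 and 21.9 CPM in saline. The groups were clearly apart, and the log2 fold change was 1.54 ± 0.081 (adjusted p = 8.09e-05, edgeR). By summed TPM (reads scaled to transcript length and library total) it had 48.7 and 42.6 in vanoxerine against 39.4 and 5.13 in saline. On that scale the vanoxerine libraries were still higher, but saline 1 lay close to them and far from saline 2.

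Short transcripts carried this disagreement, Tlr7-206 above all. It is annotated at 261 bases, and its effective length, the number of start positions left after allowing for fragment size, was 24 bases. It received 42 and 34.4 reads in vanoxerine against 67 and 0 reads in saline. In vanoxerine these were 0.876% (95% exact Clopper-Pearson interval 0.632% to 1.18%) and 0.773% (0.529% to 1.07%) of the gene's reads. In saline they were 3.49% (2.71% to 4.41%) and 0 of 1559 reads. That 0 has an exact upper bound of 0.236%, and the separate limit of 3 reads is a share of 0.192%. All of these limits cover counting error only. In TPM the same reads made up 48.1% and 47.0% of the gene in vanoxerine against 72.9% and 0% in saline. The next shortest with reads, Tlr7-205 at 366 bases, had 6.17 and 3.86 TPM in vanoxerine against 5.19 and 0 TPM in saline. Without Tlr7-206 alone, the gene had 25.3 and 22.5 TPM in vanoxerine against 10.7 and 5.13 TPM in saline, so the saline libraries came closer but still differed. The full-length Tlr7-201 held 4240 and 4153 reads in vanoxerine against 1676 and 1259 in saline, and was itself called higher at the transcript level, with a log2 fold change of 1.64 ± 0.13 (adjusted p = 0.0412, edgeR). Over transcripts of at least 500 bases, a length chosen after the values were seen that leaves out both short ones, Tlr7 had 19.1 and 18.7 TPM in vanoxerine against 5.49 and 5.13 TPM in saline.

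**Figure D2:**
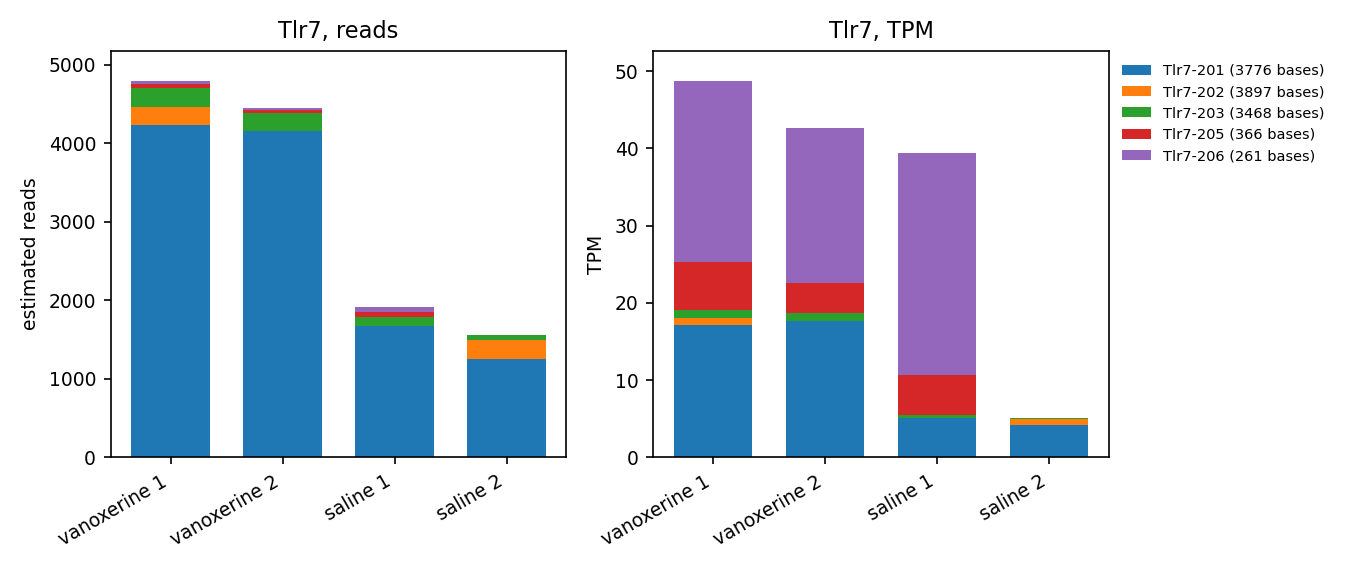
Stacked bars give Tlr7 per library by transcript, as estimated reads on the left and as TPM on the right, with vanoxerine 1 and 2 before saline 1 and 2. Tlr7-206 (261 bases) is a thin slice of the reads, 67 of 1920 in saline 1, and most of the TPM of saline 1, at 28.7 of 39.4.

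The call for Tlr7 changed with the unit. With an average transcript length offset the log2 fold change was 0.84 (adjusted p = 0.548, edgeR), and on the log2(TPM + 1) scale it was 1.56 (adjusted p = 0.309, limma). With log2(TPM + 0.1) it was 1.67 (adjusted p = 0.304, limma). When transcripts under 500 bases were left out, the length offset gave 1.58 (adjusted p = 0.000123, edgeR) and log2(TPM + 1) gave 1.66 (adjusted p = 0.000680, limma). In the authors' deposited table the log2 fold change of Tlr7 is 0.096 with an adjusted p of 0.656. That table calls 7 of the 10 receptors higher, where 20.3% of its genes with an adjusted p are called higher. Its log2 fold changes for the 7 run from 1.11 for Tlr2 to 3.21 for Tlr8, and it gives Tlr3 a value of 0.078 with an adjusted p of 0.760.

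**Figure D3:**
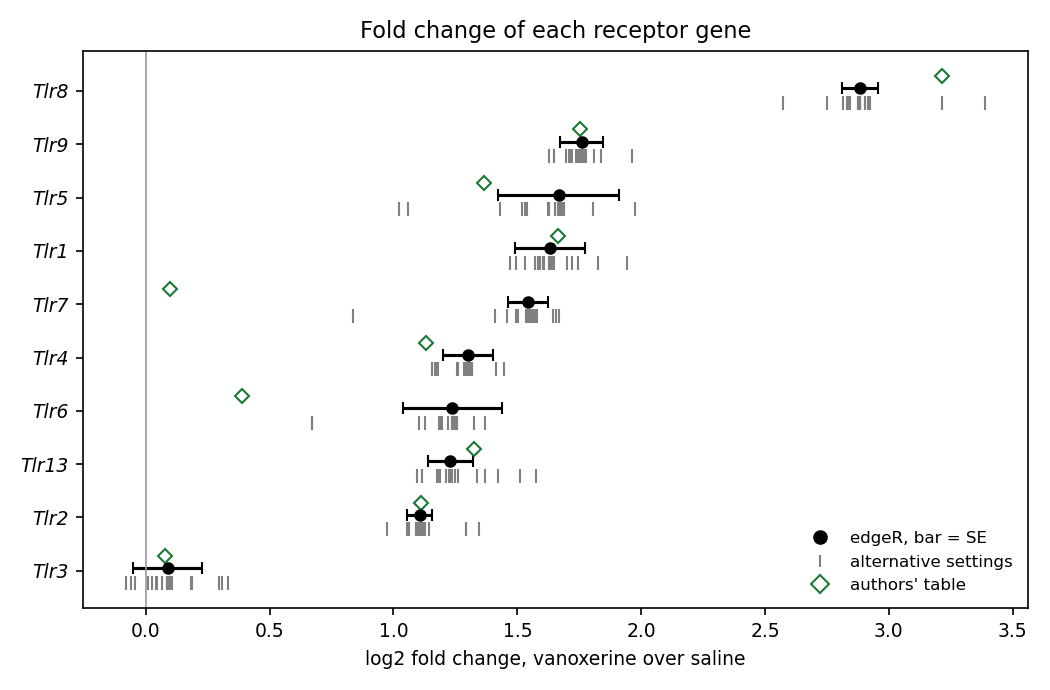
Points give the log2 fold change of vanoxerine over saline from edgeR with bars of 1 SE, grey ticks give the 19 alternative settings, and green diamonds give the authors' deposited table. Tlr8 lies at 2.88 and Tlr3 at 0.087; the diamonds of Tlr7 (0.096) and Tlr6 (0.39) lie far to the left of their points.

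Tlr3 (chr8:45395665-45411080, reverse strand), which binds double-stranded RNA and signals through TRIF, was the exception. Its level was 35.4 and 31.4 CPM in vanoxerine against 35.6 and 27.3 CPM in saline. The groups overlapped, and the log2 fold change was 0.087 ± 0.14 (adjusted p = 0.671, edgeR). The sign was negative, at -0.05, with upper-quartile factors, and without saline replicate 2 the value was -0.08 (adjusted p = 0.390). Without saline replicate 1 the log2 fold change was 0.29 and was called (adjusted p = 0.00326), with the lone saline library assumed to vary like the vanoxerine pair.

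Reads of Tlr3 were spread over 4 long transcripts in different proportions. Tlr3-205 had 1365 and 726 reads in vanoxerine against 139.5 and 0 reads in saline. Tlr3-201 had 0 and 196 reads in vanoxerine against 761 and 570.2 reads in saline. Tlr3-206 had 290.4 and 303 reads in vanoxerine against 961 and 499 reads in saline. For each of these 3 the groups did not overlap, with Tlr3-205 higher and the other 2 lower in vanoxerine, and the groups were likewise apart for 53.2% of all transcripts tested. Tlr3-202 had 755 and 808 reads in vanoxerine against 837 and 853 in saline. No Tlr3 transcript was called by edgeR over all transcripts, with adjusted p of 0.231 or more. Of the 31-base words in Tlr3 transcripts, 6.10% occur in another gene, Gm45542. Of the 31-base words of Tlr3-205, 0.713% occur in no other transcript, as do 0.665% of those of Tlr3-202, 2.72% of those of Tlr3-201 and 10.7% of those of Tlr3-206, so these divisions rest on few distinguishing bases.

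**Figure D4:**
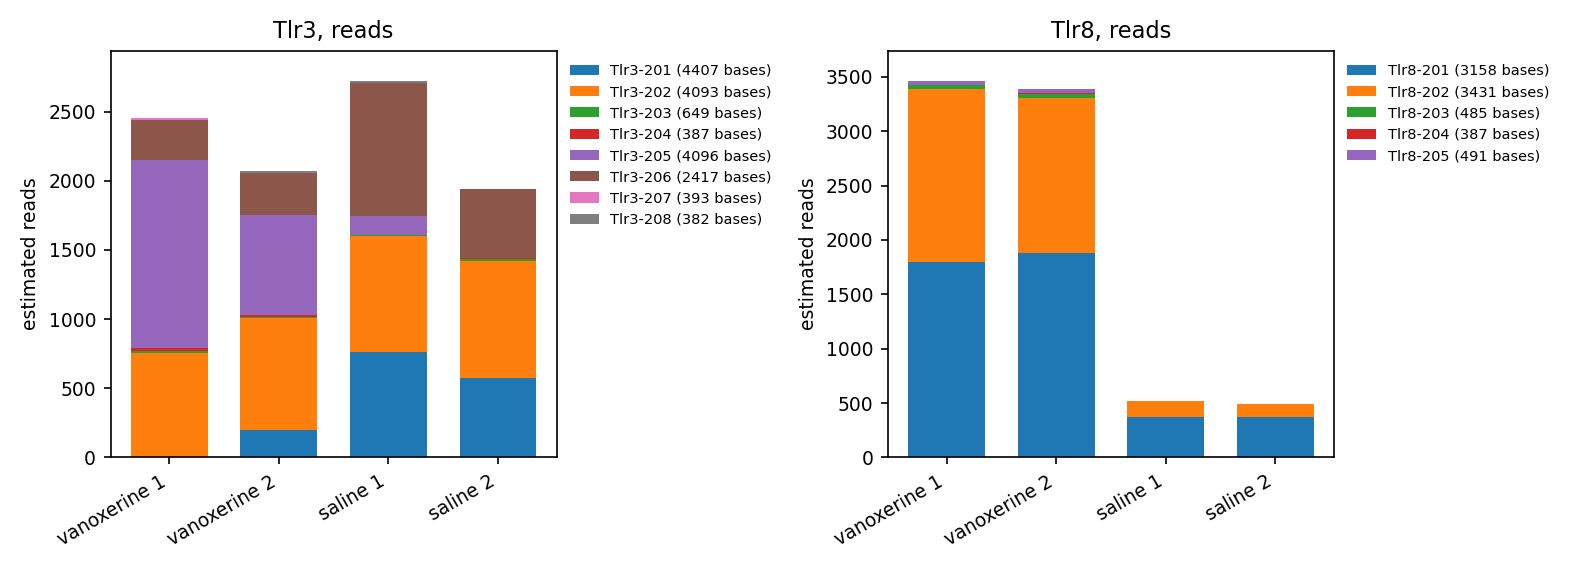
Stacked bars give estimated reads per library by transcript for Tlr3 on the left and Tlr8 on the right, vanoxerine before saline. Tlr3 has similar bar heights and a different make-up, with Tlr3-205 (purple) at 1365 and 726 reads in vanoxerine, while both long Tlr8 transcripts are taller in vanoxerine.

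Across the family the annotation holds 38 transcripts, of which 32 had reads and 26 were tested. Of these, 7 were called higher by edgeR over all transcripts, where 1.37% of the 51551 tested were called higher, 0.514% lower and 1.88% in either direction. Of the 26, 0 were called lower, and Tlr3-206 was the 1 that was lower at an unadjusted p under 0.05. The 7 called were Tlr2-201, Tlr4-201, Tlr7-201, Tlr8-201, Tlr8-202, Tlr9-201 and Tlr13-201, the main transcripts of 6 receptors. These calls do not hold without any 1 of the 4 libraries, when edgeR calls no transcript of any gene at the adjusted threshold and 4689 to 14224 at an unadjusted p under 0.05, and the uncertainty of the read division is not part of the test. Tlr8-201 had 1796 and 1878 reads in vanoxerine against 371 and 376 in saline. Tlr8-202 had 1591 and 1428 reads in vanoxerine against 151 and 116 in saline. Both were higher in vanoxerine, and no 31-base word is private to Tlr8-201. Tlr1-202 had 610.0 and 579.5 reads in vanoxerine against 0 and 205 in saline and was not called (adjusted p = 0.737, edgeR).

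Levels between receptors were compared per length, as TPM over transcripts of at least 500 bases. The cut was chosen after the values were seen, and the order depends on it in part. It also leaves out short Tlr8 transcripts, which had reads in vanoxerine only. Over all its transcripts Tlr8 had 20.7 and 21.9 TPM in vanoxerine, against 16.3 and 16.7 TPM over the long ones. In saline its 1.90 and 1.98 TPM were the same either way. In vanoxerine the order of group means was Tlr13 at 36.1 TPM, Tlr2 at 35.5, Tlr7 at 18.9, Tlr4 at 16.6, Tlr8 at 16.5, Tlr1 at 11.3, Tlr3 at 10.4, Tlr9 at 9.64, Tlr5 at 2.51 and Tlr6 at 1.37 TPM. In saline it was Tlr2 at 13.9 TPM, Tlr13 at 12.9, Tlr3 at 9.15, Tlr4 at 6.26, Tlr7 at 5.31, Tlr1 at 3.12, Tlr9 at 2.40, Tlr8 at 1.94, Tlr5 at 0.742 and Tlr6 at 0.487 TPM. Among neighbours in the order, the library values of Tlr13 and Tlr2, of Tlr4 and Tlr8, and of Tlr1 and Tlr3 overlapped in vanoxerine, as did those of Tlr2 and Tlr13, Tlr4 and Tlr7, and Tlr5 and Tlr6 in saline. Tlr8 ranked 5 and 4 in the vanoxerine libraries against 8 and 8 in saline. Tlr3 ranked 7 and 7 in vanoxerine against 3 and 3 in saline. The sum over the family was 159.6 and 158 TPM in vanoxerine against 60.3 and 52.2 TPM in saline.

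Ratios between receptors were taken on the same scale. The Tlr7 to Tlr8 ratio in TPM was 1.17 and 1.12 in vanoxerine against 2.88 and 2.59 in saline. Its size in vanoxerine depends on the length cut. Over all transcripts of both genes, Tlr7 had 48.7 and 42.6 TPM there against 20.7 and 21.9 TPM for Tlr8. Tlr7 was thus the higher with or without the cut. With the cut applied to Tlr7 alone, its 19.1 and 18.7 TPM lay below those Tlr8 values. The Tlr9 to Tlr3 ratio was 0.860 and 0.992 in vanoxerine against 0.223 and 0.313 in saline. The Tlr2 to Tlr1 ratio was 2.88 and 3.42 in vanoxerine against 5.06 and 3.96 in saline. Of 8 ratios computed the groups did not overlap in 6, and with 2 libraries a side they are given without a test. Among single genes tested the groups were apart in either direction for 70.7%, and no such share was computed over ratios. The Tlr13 to Tlr2 ratio was near 1 throughout, at 1.02 and 1.01 in vanoxerine against 0.993 and 0.863 in saline. Overlapping groups were found for Tlr2 to Tlr6, at 25.6 and 26.2 in vanoxerine against 31.6 and 25.9 in saline, and for Tlr4 to Tlr2, at 0.471 and 0.465 in vanoxerine against 0.515 and 0.383 in saline.

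The pathway around the receptors was described by 69 listed genes, of which 68 were tested. Of these 48 were called higher and 3 lower, against 21.0% and 15.9% of all genes tested, and 17 were not called, with a median log2 fold change of 0.36, against 1.42 for the receptors. Leaving out vanoxerine replicate 1 or 2 brought the higher calls to 32 or 31, and upper-quartile factors gave 36 higher and 7 lower. The 3 genes called lower, named after their values were seen, were Lbp, Hsp90b1 and Sigirr. Lbp, the lipopolysaccharide-binding protein, had a log2 fold change of -1.26. Hsp90b1, the gp96 chaperone that folds many of these receptors, had -0.20, and Sigirr, an inhibitor of the receptors, had -0.48. Lbp was called in 17 of 19 alternatives and stayed negative. Hsp90b1 was called in 13 and Sigirr in 15, and both turned positive on the log2(TPM + 1) scale, at 0.12 and 0.02, where neither was called.

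Co-receptors and ligand transfer proteins were called higher for 5 of 8 genes and lower for 1. Cd36, a scavenger receptor that works with Tlr2 and Tlr6, had 190.5 and 189 CPM in vanoxerine against 22.4 and 21.7 CPM in saline, a log2 fold change of 3.11 ± 0.051 (adjusted p = 5.13e-06, edgeR). Cd180, a relative of Tlr4 that lacks the signalling domain, had 138 and 142 CPM in vanoxerine against 34.0 and 34.0 CPM in saline. Its partner Ly86, or MD-1, had 106 and 107 CPM in vanoxerine against 28.7 and 27.2 CPM in saline. The Cd180 and Ly86 log2 fold changes were 2.04 and 1.93. For Tlr4 itself, both accessory genes were looked at after their values were seen. Cd14 had 366 and 372 CPM in vanoxerine against 252 and 248 CPM in saline (log2 fold change 0.56, adjusted p = 0.000242, edgeR). Ly96, which encodes MD-2, had 9.19 and 11.5 CPM in vanoxerine against 11.3 and 8.35 CPM in saline, with overlapping groups (log2 fold change 0.07, adjusted p = 0.803, edgeR).

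Folding, trafficking and ligand-processing genes were called higher for 12 of 18 genes and lower for 1. Unc93b1, the chaperone that carries endosomal receptors out of the endoplasmic reticulum and was picked out after its values were seen, had 325 and 318 CPM in vanoxerine against 106 and 106 CPM in saline, a log2 fold change of 1.60. The proteases Ctsb (cathepsin B) and Lgmn (legumain), which cut endosomal receptors into their active form, had log2 fold changes of 1.34 and 1.83. Pld4, an exonuclease that degrades Tlr9 and Tlr7 ligands in endolysosomes, had 234 and 235 CPM in vanoxerine against 67.4 and 67.3 CPM in saline, a log2 fold change of 1.80 (adjusted p = 8.72e-06, edgeR).

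Adaptors were called higher for 4 of 6 genes tested. Pik3ap1, or BCAP, which links the receptors to PI3-kinase, had 415 and 419 CPM in vanoxerine against 176 and 159 CPM in saline, a log2 fold change of 1.32. Ticam2, or TRAM, the bridge from Tlr4 to TRIF, had a log2 fold change of 1.83, and Ticam1, which encodes TRIF, had 0.68. Myd88, the adaptor of every receptor here but Tlr3, was named after its values were seen. It had 106 and 103 CPM in vanoxerine against 83.7 and 92.2 CPM in saline, a log2 fold change of 0.25 (adjusted p = 0.0260, edgeR), called in 13 of 19 alternatives.

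Kinases and ubiquitin ligases were called higher for 13 of 17 genes, with a median log2 fold change of 0.36. Ikbke, which encodes IKK epsilon, had 1.03, Tab2, a regulatory subunit of the TAK1 kinase, 0.53, and Map3k8, which feeds the ERK pathway, 0.75. Transcription factors were called higher for 6 of 8 genes. Rel, a subunit of NF-kB, had 84.0 and 84.4 CPM in vanoxerine against 29.0 and 32.7 CPM in saline, a log2 fold change of 1.45 (adjusted p = 6.62e-05, edgeR). Irf5 and Irf8, interferon regulatory factors of myeloid cells, had log2 fold changes of 1.18 and 0.91. Inhibitors were called higher for 8 of 11 genes and lower for 1. Tnfaip3, the ubiquitin-editing enzyme A20, had 0.54, Tank, an adaptor that restrains TRAF signalling, 0.61, and Tollip, which dampens IRAK signalling, 0.73.

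**Figure D5:**
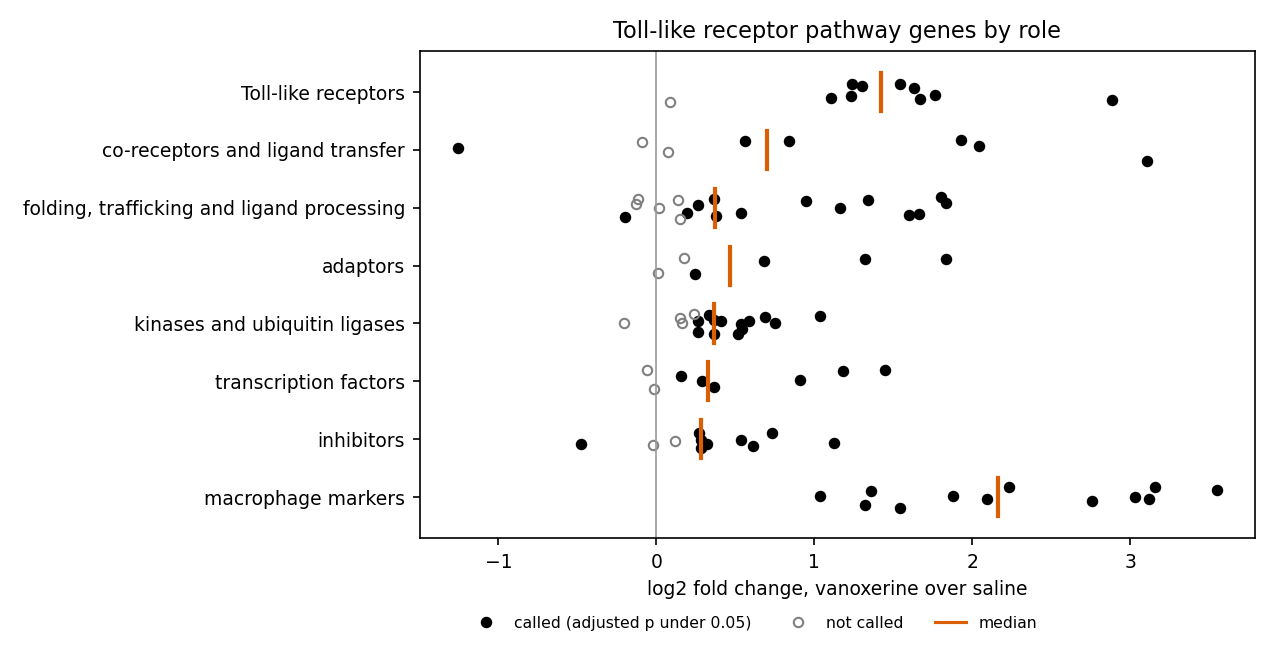
Each point is a gene, placed by its log2 fold change of vanoxerine over saline and by its role, filled where edgeR's adjusted p was under 0.05 and open where it was not; the orange bar is the group median. The medians are 1.42 for the receptors, 0.70 for co-receptors, between 0.28 and 0.46 for the other pathway groups, and 2.16 for the macrophage markers.

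For each called receptor, the 3 genes with the most similar profile were found by Euclidean distance between centred log2 CPM values over the 4 libraries, among 11740 genes whose log2 CPM averaged at least 1. Distances ran from 0.0135, for Lacc1 beside Tlr4, to 0.158, for Fam83f beside Tlr5. The nearest to Tlr8 were H2-Ab1, Clec12a and Itga9, those to Tlr7 were Gpr65, Dmpk and C5ar1, and those to Tlr9 were Mmp13, Fam49a and Nrp1. Tlr13 had Fmnl2, Secisbp2l and Klf10, and Tlr4 had Lacc1, Xist and Maf. Tlr2 had Abl2, Cul9 and Itm2b, Tlr1 had Enpp1, Dcxr and Castor2, Tlr5 had Cgnl1, Gstm4 and Fam83f, and Tlr6 had Tpcn2, Fcgr3 and Pirb. With 4 libraries in 2 groups, likeness is mostly the size of the difference between groups, and these names are a description.

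Promoter sequences of the receptors were searched for known motifs, as a description and without a test. RefSeq windows of 300 bases (GRCm38.p6, 250 before to 50 after the annotated start) were found for 8 receptors, with 10 windows in all, and Tlr4 and Tlr7 had none. Windows were searched on both strands for the PU.1 box GAGGAA, the interferon-stimulated response element and the NF-kB consensus. The PU.1 box was found in 4 of the 8, Tlr1, Tlr8, Tlr9 and Tlr13, against 31.3% of 27025 genes and 28.3% of 32851 windows. The NF-kB consensus was found in Tlr2 and Tlr3, against 5.14% of genes and 4.51% of windows. The response element was found in Tlr6 alone of the 8, as 2 overlapping matches, against 3.99% of genes and 3.44% of windows. No match was found in Tlr5, and Tlr1 and Tlr6 each had another window without a match. No match of one motif overlapped a match of another in these windows. Shown are the windows of Tlr8 and Tlr9, which had the highest log2 fold changes, of Tlr2, and of Tlr3, with capitals marking the PU.1 box on either strand in Tlr8 and Tlr9 and the NF-kB consensus in Tlr2 and Tlr3.
Tlr8 promoter (chrX:167264280-167264579, reverse strand): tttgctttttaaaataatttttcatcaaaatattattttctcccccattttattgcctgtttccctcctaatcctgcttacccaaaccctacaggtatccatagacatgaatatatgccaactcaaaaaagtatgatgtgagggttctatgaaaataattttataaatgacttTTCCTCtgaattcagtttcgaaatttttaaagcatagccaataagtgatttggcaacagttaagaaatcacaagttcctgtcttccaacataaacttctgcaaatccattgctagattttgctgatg
Tlr9 promoter (chr9:106222348-106222647, forward strand): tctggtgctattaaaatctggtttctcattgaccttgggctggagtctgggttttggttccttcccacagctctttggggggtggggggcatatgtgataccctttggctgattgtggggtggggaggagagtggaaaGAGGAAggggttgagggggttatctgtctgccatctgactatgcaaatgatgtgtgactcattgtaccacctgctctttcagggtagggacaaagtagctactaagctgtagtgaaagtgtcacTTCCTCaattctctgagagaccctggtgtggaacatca
Tlr2 promoter (chr3:83841559-83841858, reverse strand): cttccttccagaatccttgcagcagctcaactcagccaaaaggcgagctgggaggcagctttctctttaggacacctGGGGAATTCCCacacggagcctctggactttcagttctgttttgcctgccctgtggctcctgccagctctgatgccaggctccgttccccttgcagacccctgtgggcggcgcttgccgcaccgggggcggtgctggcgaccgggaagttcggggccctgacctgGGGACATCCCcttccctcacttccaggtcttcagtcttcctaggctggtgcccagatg
Tlr3 promoter (chr8:45410331-45410630, reverse strand): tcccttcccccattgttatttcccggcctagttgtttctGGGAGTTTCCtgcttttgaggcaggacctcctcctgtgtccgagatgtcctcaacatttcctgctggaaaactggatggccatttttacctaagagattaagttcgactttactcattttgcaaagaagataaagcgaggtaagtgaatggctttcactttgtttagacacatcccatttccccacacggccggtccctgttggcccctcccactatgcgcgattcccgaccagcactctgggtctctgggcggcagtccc

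In Tlr8 the box lies at position -77 on the reverse strand, and in Tlr9 at -112 on the forward strand and at 13 after the start on the reverse strand. In Tlr2 the capitals at -173 hold 3 overlapping matches and those at -8 hold 1. In Tlr3 the match begins at -211. A match is a run of letters in these windows, and nothing about binding was measured.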

How the data were processed

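RNA-seq libraries of 4 MC38 tumour samples, 2 vanoxerine and 2 saline by the labelled treatment, were analysed. Per the submitters' processing notes, the authors used fastp, Salmon 1.3.0 and DESeq2 with GRCm38. The annotation release and the strand setting of the counting were not stated, so reads of overlapping or antisense genes may be mixed. Per the file headers, the authors deposited for each library Salmon's estimated counts, TPM and effective length of 140992 transcripts. Their deposited comparison table holds, per the file headers, a base mean (a signal averaged over libraries), a log2 fold change, its error and an adjusted p-value per gene. Another 4 columns of FPKM values match no sample's labels and were not used.

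Transcripts were assigned to genes with GENCODE M21 by stable identifier, and 139791 matched, with 99.56% to 99.63% of each library's reads. Totals were 70564325 and 67289273 estimated reads in vanoxerine, and 75748162 and 70274527 in saline. Summed counts were rounded and tested with edgeR 4.0.16 (R 4.3.3), with TMM factors, a minimum count of 10 and total of 15, the quasi-likelihood test without a block, and Benjamini-Hochberg adjustment over all genes (or all transcripts) at 0.05. SE came from the test's F statistic. The test was checked on simulated data. Alternatives used DESeq2 1.42.0 and limma 3.58.1 (voom, and limma-trend on log2(TPM + 1) or log2(TPM + 0.1), which understates changes of low genes), other scalings and filters, a length offset, protein-coding transcripts, a replicate block, each library left out, and transcripts of at least 500 bases.

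The members and all lists were chosen with earlier results of these data known. Of 175 list entries, 174 matched a gene, and Tasl did not. Named genes were the 10 members, up to 3 pathway genes per role with the smallest p, and 3 nearest profiles per called member. Promoters are RefSeq sequences on GRCm38.p6, and transcript words of 31 bases were compared in GENCODE M21.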

Additional observations from a re-analysis of the deposited data

How the results depend on the processing

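The count of receptors called was 9, and it was 8 to 10 over the 19 alternatives. Of 190 receptor values under alternatives, 182 kept their direction and their side of the threshold. The log2 fold change of Tlr3 reversed at -0.061 (adjusted p = 0.789, edgeR) with the length offset over transcripts of at least 500 bases, at -0.045 (adjusted p = 0.818) with upper-quartile factors and at -0.080 (adjusted p = 0.390) without saline replicate 2, and was 0.29 (adjusted p = 0.00326) without saline replicate 1. Tlr6 and Tlr7 lost their call in the settings given with them above, and the cause was not tested beyond leaving out all transcripts under 500 bases together, which restored the Tlr7 calls. Of 854 values of the other genes named by the rule, 846 kept their direction and call, and 8 lost the call, 5 of them for Cgnl1. For the 6 called pathway genes named after their values were seen, 18 of 114 values lost the call, and 5 of these reversed, for Hsp90b1 (0.11 to 0.12) and Sigirr (0.02) on log2(TPM) scales. The settings on transcripts of at least 500 bases were chosen after seeing the data.

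Genes called numbered 6916, and 4309 with the length offset and 3107 to 9708 without 1 library, where a group left with 1 library borrows its spread from the other. The share of calls higher in vanoxerine was 83.0% with log2(TPM + 0.1) and 83.5% with log2(TPM + 1) over transcripts of at least 500 bases, which moved the median of all genes by 0.22 and 0.15. Pathway genes called numbered 51, and 32 to 59 without 1 library. Transcripts called numbered 971, 1890 at a mean CPM of at least 1, and 0 without any 1 library, where edgeR still gave 4689 to 14224 at an unadjusted p under 0.05. The cause was not tested.

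The labels do not say that equal replicate numbers share an animal or batch, and deviations of same-numbered libraries correlated at -0.0129 over 9871 genes. With the replicate number as a block, the count of genes called by edgeR was 6391, that of receptors 9, of pathway genes 51 and of transcripts 0, with 6252 transcripts at an unadjusted p under 0.05. With 2 libraries a group, a difference between groups rests on few values. Depth limits Tlr5 and Tlr6 most, at 129 to 539 reads a library.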

Other observations

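Several minor receptor transcripts had reads in both vanoxerine libraries and none in saline. The share of all transcripts with this pattern was not computed, and the groups were apart for 53.2% of transcripts tested. Fewer reads of the whole gene were present in saline, for Tlr8 522 and 492 against 3464 and 3390 in vanoxerine. Tlr8-203, a transcript of 485 bases, had 37.0 and 41.7 reads in vanoxerine, and Tlr8-205, of 491 bases, had 36.6 and 37.8 reads. Tlr13-202, a retained-intron transcript of 337 bases, had 15.9 and 15 reads in vanoxerine. None was called by edgeR over all transcripts, with adjusted p of 0.115, 0.116 and 0.158.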
